A study of Mus musculus with 2 samples.

Results

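Cluster 3 of the liver immune cells held 569 of 11929 cells, and the study named every cell in it an NK cell. The members were taken by that name and by the cluster number, both deposited with the data, which gave 263 of 4647 TG cells and 306 of 7282 WT cells. The same name was given to cluster 8 (153 TG and 287 WT cells) and to cluster 11 (343 TG and 22 WT cells), and these are the cells that cluster 3 was compared with. TG mice (dnTGFβRII, a model of primary biliary cholangitis) carry a transgene, driven by the mouse CD4 promoter, for a dominant negative human TGF-β type II receptor, and WT mice were the wild type. Both were C57BL/6, labelled 10 weeks old (the methods of the study give a slightly younger age), and CD45+ cells of the liver were taken from both. Each genotype came from 1 capture library. The TG library also held cells of IFN-γ ARE-Del-/- mice and the WT library cells of P40-/-IL-2Ra-/- mice, told apart by sample tags and not analysed here. The number of animals behind a library is not given in the sources used here. With 1 library per genotype there was no replicate, genotype and library cannot be told apart, and no test or p-value is given. Intervals are exact 95% intervals and cover counting error only.

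NK cells and group 1 innate lymphoid cells (ILC1) are lymphocytes without a rearranged antigen receptor that share NK1.1 and NKp46. In the mouse liver, conventional NK cells circulate and depend on the transcription factor Eomes, with CD49b and many Ly49 receptors on the surface. ILC1 stay in the tissue and carry CD49a, CXCR6, TRAIL and the interleukin 7 receptor. T cells in the liver can take up NK receptors and CD49a too, and are told from both by the CD3 chains and a rearranged T cell receptor. TGF-β is among the signals known to shape ILC1 and resident T cells.

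The members held a median of 2958 UMIs (unique molecular identifiers, counts of single captured molecules) in TG and 2652 in WT, and 789237 and 833812 UMIs in sum. Cluster 8 gave 565284 and 725719 UMIs. Cluster 11 gave 927826 UMIs in TG but only 46296 in WT, so that WT values of cluster 11 are imprecise. The 2 libraries shared 36 cell indices, carried by 3 TG and 1 WT members, and a doublet caller marked 0 TG and 15 WT members. Cluster 3 made up 5.66% (5.01 to 6.36) of TG cells and 4.20% (3.75 to 4.69) of WT cells. Of the cells named NK it was 34.7% (31.3 to 38.2) in TG and 49.8% (45.7 to 53.8) in WT. The order of the genotypes thus turned with the denominator, and cluster 11, which was larger in TG, enters the second denominator with a greater weight. A share cannot tell fewer cells of 1 kind from more of another.

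The name of the cluster was first held against its leading genes, the genes with the highest ratio to all other cells of the same library. In WT these were Gzmc, Cd200r2, Sema6d, Dll1, Avil, Klrb1b, Cdh17, Styk1, Igsf5 and Pdzd2. In TG they were Gzmc, Styk1, Cd200r2, Itgad, Cpne7, Klrb1b, Igsf5, Xcl1, Camk2b and Gm36723. Gzmc, Cd200r2, Klrb1b, Styk1 and Igsf5 led in both, and no gene of the T cell or B cell lists was among them. The clustering itself used these genes, and they are given as a description. The transcripts of the T cell receptor complex went against the name NK in the TG members, and the cells are therefore called cluster 3 throughout.

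The levels behind that shared lead differed between the genotypes. Levels are given as UMIs of the gene per 1000000 UMIs of the cluster (CPM), and positions are those of the GRCm38 annotation. Gzmc (granzyme C, chromosome 14, 56231441 to 56234656) stood at 204 CPM (174 to 237) in WT and at 26.6 CPM (16.5 to 40.7) in TG, where 7 cells held all 21 UMIs. Its reads can be shared with other granzymes of that locus, so its level is uncertain. Klrb1b, an inhibitory NKR-P1 receptor (chromosome 6, 128813706 to 128826331), stood at 753 CPM (695 to 814) in WT and 105 CPM (83.8 to 130.4) in TG. It was found in 243 of 306 WT members and in 39 of 263 TG members. Both genes marked the WT members far more than the TG members. For Cd200r2, a receptor of the CD200R family (chromosome 16, 44867097 to 44915840), the levels were 175 CPM (148 to 206) in WT and 40.6 CPM (27.7 to 57.2) in TG. Ncr1, which encodes NKp46 (chromosome 7, 4337724 to 4345164), stood at 961 CPM (895 to 1030) in WT and 506 CPM (457 to 558) in TG. Styk1, a kinase-like protein of NK cells (chromosome 6, 131299142 to 131353597), had the same level in both, 93.6 CPM (73.9 to 117) in WT and 93.8 CPM (73.6 to 118) in TG. Of these 5 genes, 3 were at least 2-fold lower in TG and 0 were 2-fold higher, where 4.19% of all 7801 genes were that much lower. In the CD8αα T cells 4 of the 5 were 2-fold lower in TG and 0 higher, beside 2.47% of all genes lower, so that these cells shared the drop. In cluster 8 only Klrb1b, Ncr1 and Styk1 had enough UMIs, and Gzmc and Cd200r2 could not be compared. Of these 3 measured genes 0 were 2-fold lower or higher, beside 3.63% and 2.76% of all genes, with a median log2 ratio of -0.20. Klrb1b was lower in TG in cluster 8 too, but by less than 2-fold. In mature B cells 0 of 2 measured genes were 2-fold lower or higher, beside 2.69% and 1.84%. The 5 genes were chosen as markers of cluster 3 with these data known, so the counts are a description.

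To place cluster 3 between ILC1 and conventional NK cells, gene lists were compared with cluster 8 in each library. Of 15 ILC1 genes, 14 had at least 20 UMIs, and 11 of them in TG and 13 in WT were 2-fold or more higher in cluster 3. None was 2-fold lower. The background was 8.01% of all 7251 genes measured in TG and 7.45% of 7594 in WT. The median log2 ratio of the ILC1 list was 2.63 in TG and 2.87 in WT, where the median of all genes was 0.08 and 0.07. Of these genes, 11 passed 2-fold in both libraries.

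Itga1, which encodes CD49a (chromosome 13, 114953096 to 115101964), had nearly the same level in the members of both genotypes, 516 CPM (467 to 568) in TG and 492 CPM (445 to 542) in WT. In cluster 8 the levels of TG and WT were 28.3 and 5.51 CPM, which gave log2 ratios of 4.15 (3.47 to 5.01) and 6.31 (5.11 to 8.36). CD49a is the integrin by which liver ILC1 are usually told from NK cells. Itga1 was found in 66.9% of TG and 60.1% of WT members. CD8αα T cells held it too, in 75.4% of TG and 69.1% of WT cells, so it did not set the members apart from them. Tnfsf10, the gene of TRAIL, was higher than in cluster 8 by a log2 ratio of 3.32 (2.47 to 4.48) in TG and 4.84 (3.93 to 6.15) in WT. The chemokine receptor gene Cxcr6 followed with 3.31 (2.30 to 4.75) and 4.19 (3.44 to 5.17). For Cxcr3, the receptor of the interferon-induced chemokines, the ratios were 3.02 (2.35 to 3.87) and 2.10 (1.68 to 2.57). The intervals of these genes lay above 0 in both libraries. Inpp4b, a lipid phosphatase, gave 4.27 (3.15 to 6.05) and 3.32 (2.60 to 4.23). The chemokine gene Xcl1 gave 1.70 (1.44 to 1.97) in TG and 1.72 (1.56 to 1.89) in WT. Cd69, an early activation antigen, passed 2-fold in neither, with 0.84 and 0.52. Tmem176b, one of a pair of linked membrane protein genes, had a log2 ratio of 0.34 (-0.83 to 1.64) in TG and 3.08 (2.24 to 4.18) in WT.

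**Figure D1:**
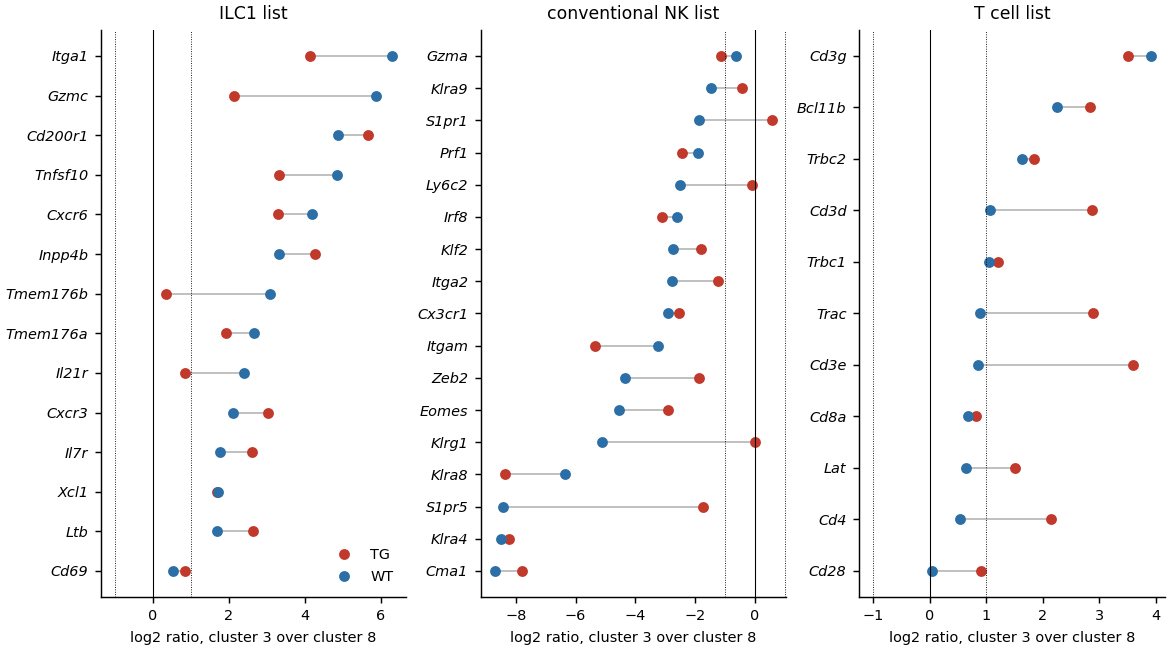
Each row is a gene of the ILC1, conventional NK or T cell list, and the axis is the log2 ratio of its CPM in cluster 3 over cluster 8 within TG (red) or WT (blue), with dotted lines at 2-fold. All plotted ILC1 genes lie right of 0 in both libraries, the conventional NK genes lie left of it apart from Klrg1 and S1pr1 in TG, and Cd3e, Trac and Cd3d lie further right in TG than in WT.

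The genes of conventional NK cells lay on the other side. All 18 had at least 20 UMIs, and 14 in TG and 17 in WT were 2-fold or more lower than in cluster 8, against 3.81% and 4.5% of all genes. The median log2 ratio was -2.16 in TG and -3.08 in WT, and 13 genes were 2-fold lower in both libraries. Eomes (chromosome 9, 118478212 to 118486132) was at 52.0 CPM in TG members and 28.8 CPM in WT members, and at 391 and 692 CPM in cluster 8. Its log2 ratio was -2.90 (-3.43 to -2.43) in TG and -4.56 (-5.24 to -4.00) in WT. The gene was thus low in the members of both genotypes. Itgam, the gene of CD11b, gave -5.37 (-6.59 to -4.50) in TG and -3.24 (-3.84 to -2.73) in WT. The pore-forming protein gene Prf1 gave -2.46 (-2.69 to -2.23) in TG and -1.90 (-2.12 to -1.69) in WT. The Ly49 receptor genes Klra4 and Klra8 were at 2.53 CPM each in TG members, where cluster 8 had 945 and 1049 CPM. Ly49 and NKR-P1 receptors belong to families of near-identical genes, so their reads can be split between copies and single members are uncertain.

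Not every gene of that list was low in TG. Klrg1, an inhibitory receptor of mature NK cells and effector T cells (chromosome 6, 122270596 to 122282882), was at 568 CPM (516 to 623) in TG members and at 563 CPM in cluster 8 of TG. In WT members it was at 6.00 CPM (1.95 to 14.0), against 227 CPM in cluster 8. Ly6c2, a surface antigen of effector lymphocytes, was at 575 CPM in TG members and 110.3 CPM in WT members, and at 614 and 634 CPM in cluster 8. For both genes the TG members were at the level of cluster 8 and the WT members far under it.

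The transcripts of the T cell receptor complex split the genotypes. Cd3e (chromosome 9, 44998740 to 45009627), a signalling chain of the receptor, was at 1608 CPM (1521 to 1699) in TG members and 122 CPM (99.8 to 149) in WT members. Cluster 8 had 133 and 67.5 CPM in the same order, and mature B cells, which should lack the gene, had 103 and 149.5 CPM. Trac, the constant region of the α chain (chromosome 14, 54220521 to 54224206), was at 1143 CPM (1069 to 1220) in TG members and 245 CPM (212 to 281) in WT members, and at 98.8 and 257 CPM in mature B cells. For both genes the level in WT members was no higher than that in mature B cells of the same library, of which the doublet caller marked 7.43%, against 2.25% in TG. In TG members it was far over the B cells, and nearer to the cells named CD8αα T cells (cluster 2), which had 1747 CPM of Cd3e and 1519 CPM of Trac. Cd3d, a further CD3 chain, was at 615 CPM in TG members and 99.5 CPM in WT members. The log2 ratios of cluster 3 over cluster 8 were 3.59 (3.26 to 3.96) for Cd3e, 2.89 (2.57 to 3.23) for Trac and 2.87 (2.45 to 3.35) for Cd3d in TG. In WT they were 0.85 (0.35 to 1.38), 0.90 (0.54 to 1.27) and 1.08 (0.50 to 1.71).

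Other genes of the complex did not split the genotypes in this way. Cd3g was at 855 CPM (792 to 922) in TG members and 880.3 CPM (818 to 946) in WT members, with 74.3 and 57.9 CPM in cluster 8. Trbc1 was at 811 CPM in TG members and 696 CPM in WT members, and Trbc2 at 1352 and 1120 CPM. These genes are the constant regions of the β chain and are near copies of each other, so reads can be split between them. WT members thus held Cd3g and Trbc transcripts at levels close to those of TG members while Cd3e and Trac were no higher than in B cells. Over the T cell list, 12 of 15 genes had at least 20 UMIs in each library, and 10 in TG and 5 in WT were 2-fold or more higher than in cluster 8, beside 8.01% and 7.45% of all genes. The median log2 ratio was 2.12 in TG and 0.88 in WT. Against cluster 11 in TG, 4 of 14 T cell genes were 2-fold higher and 1 was lower, beside 5.8% and 2.66% of all 7740 genes, and the median was 0.21. Cluster 11 of TG itself held Cd3e at 1401 CPM and Trac at 992 CPM.

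**Figure D2:**
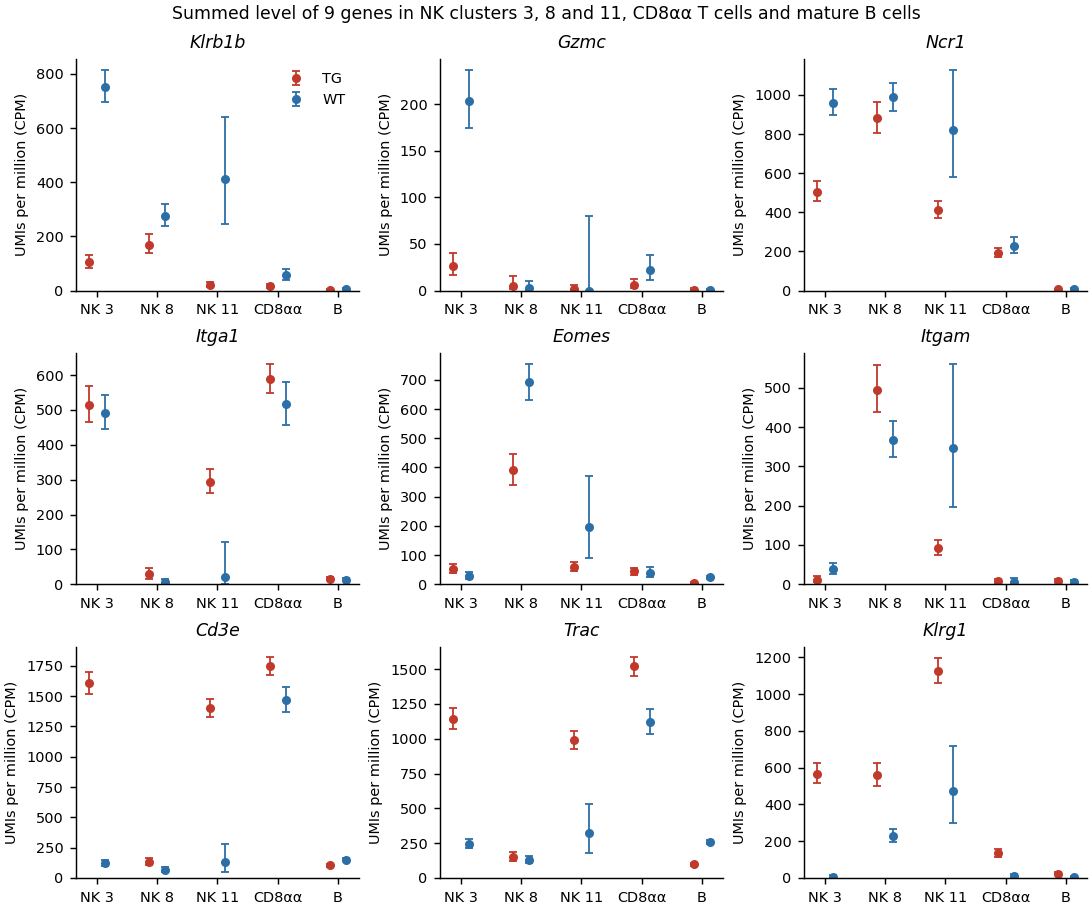
Points are the summed levels of genes in CPM with exact 95% counting intervals, in NK clusters 3, 8 and 11, CD8αα T cells and mature B cells of TG (red) and WT (blue), 1 library each. In cluster 3, Itga1 is alike in both genotypes, Klrb1b, Gzmc and Ncr1 are higher in WT, and Cd3e, Trac and Klrg1 are higher in TG.

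The same was asked cell by cell. With at least 2 UMIs over Cd3d, Cd3e, Cd3g, Trac, Trbc1 and Trbc2, 99.2% (97.3 to 99.9) of TG members and 90.9% (87.1 to 93.8) of WT members counted as carrying T receptor transcripts. Cluster 8 had 62.1% in TG and 49.5% in WT. Mature B cells had 25.2% (22.6 to 27.9) in TG and 20.4% (18.3 to 22.5) in WT, at median depths of 2923 and 2045 UMIs. Most cells of both genotypes were thus above the B cells on this measure, which takes in Cd3g and Trbc. With each cell thinned to 1000 UMIs, so that depth was equal, the shares were 94.3% in TG members, 69.9% in WT members, and 5.90% and 11.9% in mature B cells of TG and WT.

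A narrower measure, chosen after the data were seen, counted only Cd3d, Cd3e and Trac. At least 5 of these UMIs were found in 211 of 263 TG members, or 80.2% (74.9 to 84.9), and in 21 of 306 WT members, or 6.86% (4.30 to 10.3). In mature B cells the shares were 2.53% (1.67 to 3.66) in TG and 7.83% (6.52 to 9.31) in WT, where that in WT members lay within the interval of the B cells. Cluster 8 had 7.19% (3.64 to 12.5) in TG and 2.09% (0.771 to 4.50) in WT. The 21 WT members held a median of 4474 UMIs and had antibody medians of 1.48 for TCRβ and 2.59 for CD5 (natural log), against 2601 UMIs, 0.76 and 0.84 in the 269 WT members with 0 or 1 such UMIs. Cluster 11 of TG had 79.0% (74.3 to 83.2), and CD8αα T cells had 96.3% in TG and 83.0% in WT. At this cut the TG members were thus close to cluster 11 of TG. With at least 2 such UMIs the shares lay apart, at 90.9% (86.7 to 94.1) in TG members and 98.5% (96.6 to 99.5) in TG cluster 11. Near the threshold, 28 TG and 16 WT members had 2 to 4 such UMIs. After thinning to 1000 UMIs, at least 2 such UMIs were found in 74.5% (68.8 to 79.7) of TG members and 6.21% (3.78 to 9.53) of WT members, beside 2.53% and 6.89% of mature B cells.

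**Figure D3:**
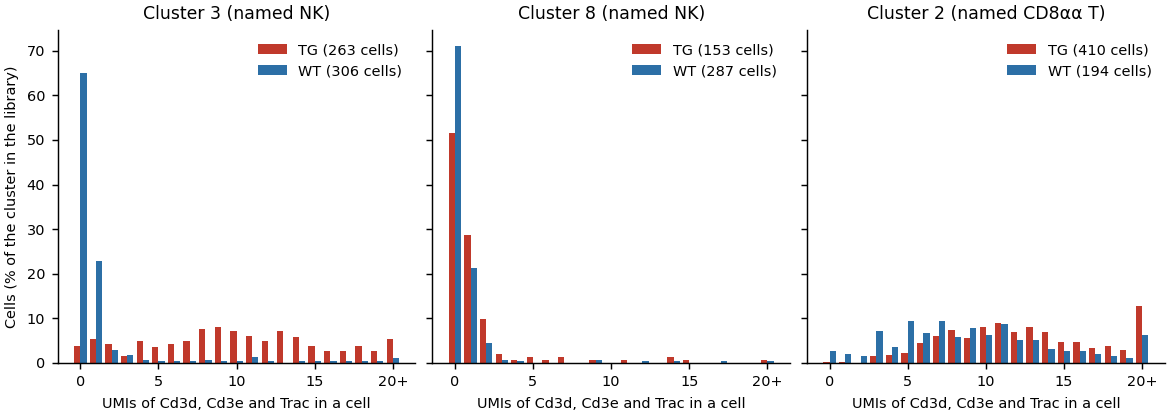
Bars give the share of cells (in % of the cluster within a library) by the number of UMIs over Cd3d, Cd3e and Trac, for TG (red) and WT (blue). In cluster 3 most WT cells sit at 0 or 1 and most TG cells at 5 or more.

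Counts assigned to receptor segments were also higher in TG members than in WT members, with few counts. Whether they came from a rearranged receptor was not tested. Over the 41 variable, diversity and joining segments of the α and β chains in the table, TG members had 108 UMIs, or 137 CPM (112 to 165), in 74 cells. WT members had 40 UMIs, or 48.0 CPM (34.3 to 65.3), in 36 cells. Cluster 8 had 47.8 CPM in TG and 24.8 CPM in WT, and mature B cells 8.04 CPM (5.30 to 11.7) and 12.8 CPM (9.37 to 17.1). On this measure WT members were above the mature B cells, unlike on that of Cd3d, Cd3e and Trac. The CD8αα T cells had 187 CPM (164 to 211) in TG and 58.2 CPM (39.8 to 82.1) in WT, and NKT cells 209.6 CPM (189 to 232) and 77.2 CPM (70.7 to 84.2), so that TG was higher than WT in these sets too. The TG members lay between cluster 11 of TG, at 87.3 CPM (69.3 to 109), and the CD8αα T cells of TG, and the interval of the WT members overlapped that of the WT CD8αα T cells. Genes of gamma delta and innate T cells summed to 2440 CPM in WT CD8αα T cells and 332 CPM in WT members. Their bearing on this overlap was not tested.

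The TG members were then set out by these transcripts, into 211 cells with 5 or more UMIs of Cd3d, Cd3e and Trac, 28 with 2 to 4 and 24 with 0 or 1. The 24 cells had Klrb1b at 747 CPM (566 to 968) and Ncr1 at 1088 CPM (866 to 1348). The 211 cells had Klrb1b at 29.8 CPM (17.9 to 46.5) and Ncr1 at 438 CPM (389 to 493). WT members with 0 or 1 such UMIs, 269 cells, had Klrb1b at 793 CPM (728 to 862) and Ncr1 at 1041 CPM (966 to 1120). On these genes the intervals of the 24 TG cells and the 269 WT cells overlapped, but on others they lay apart. Il7r, the receptor chain for interleukin 7, was at 695 CPM (520.2 to 908) in the 24 TG cells, 235 CPM (199.8 to 274) in the 269 WT cells and 43.8 CPM (29.1 to 63.4) in the 211 TG cells. Klrg1 was at 105 CPM (45.3 to 207), 4.37 CPM (0.902 to 12.8) and 622 CPM (562 to 686) in the same order. The 24 TG cells also had more Cd4 than the 269 WT cells, at 184 against 16.0 CPM, and less Gzmc and Cxcr6, at 26.2 against 217 CPM and 157 against 329 CPM. Itga1 was found in both TG strata, at 406 CPM (276 to 577) in the 24 cells and 521 CPM (467 to 580.4) in the 211. On the antibody readout, TCRβ had a median of 1.19 (natural log) in the 24 cells and 1.60 in the 211, and CD5 of 0.94 and 1.72. CD49a had a median of 2.36 in the 24 TG cells and 3.36 in the 269 WT cells, and NK1.1 of 1.88 and 1.00. The strata were made on T receptor transcripts after the values were seen, and the other transcripts come from the same cells, so they are a description.

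NK receptor transcripts were then looked for in the TG members with T receptor transcripts. Of the 211 TG members with 5 or more such UMIs, 188 (89.1%) held Klrb1c, the gene of NK1.1, and 126 (59.7%) held Ncr1. Thinned to 1000 UMIs these shares were 66.4% and 29.9%. Of mature B cells in TG, 4.40% held Klrb1c and 1.31% held Ncr1, or 1.31% and 0.562% thinned. NK receptor transcripts in these cells were thus above the level of B cells. They were not particular to these cells. In TG, Klrb1c was found in 86.3% of CD8αα T cells and 85.4% of cluster 11, and Ncr1 in 33.4% and 56.3%. Of the same 211 cells, 128 held Cd4 without Cd8a, 16 held Cd8a without Cd4, and 56 held neither. Of the 410 CD8αα T cells of TG, 45 held Cd4 without Cd8a and 193 Cd8a without Cd4. Cd4 without Cd8a was thus found in 60.7% of the 211 cells, beside 31.4% of cluster 8 and 4.68% of mature B cells in TG. Thinned to 1000 UMIs, the 211 cells had Cd4 without Cd8a in 41.7% and neither gene in 50.2%, so that the share with neither depended on depth.

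Cd4, the coreceptor gene of helper T cells, was at 546 CPM (496 to 600.2) in TG members and 20.4 CPM (11.9 to 32.6) in WT members. It was also higher in TG in cluster 8, at 122 CPM against 13.8 CPM, and in CD8αα T cells, at 113 CPM against 10.9 CPM, while mature B cells had 25.3 and 37.0 CPM. Tgfbr2, the mouse gene of the receptor that the transgene imitates, was at 386 CPM (344 to 432) in TG members and 163 CPM (137 to 193) in WT members. In cluster 8 it was at 379 and 123 CPM, in cluster 11 at 332 CPM (296 to 371) and 86.4 CPM (23.5 to 221), in CD8αα T cells at 341 and 140 CPM, and in mature B cells at 218 and 232 CPM. The TG level was thus higher in NK clusters 3, 8 and 11 and in CD8αα T cells, and not in mature B cells. Whether reads of the transgene were counted under either gene was not tested. Of 9 measured genes of the TGF-β pathway, Tgfbr2 alone was 2-fold higher in TG members and 0 were 2-fold lower, beside 4.31% and 4.19% of all genes, with a median log2 ratio of -0.05.

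The antibodies gave a second readout of the same cells. Values are the deposited normalised values, on a natural log scale, and are given as the median with quartiles over cells. CD49a was at 3.40 (2.93 to 3.78) in TG members and 3.32 (2.88 to 3.62) in WT members, and at 0.74 and 0.50 in cluster 8. On this antibody, members of either genotype were alike and cluster 8 differed. CD8αα T cells were near the members, whose median was higher by 0.22 in TG and 0.35 in WT. Cluster 11 had CD49a at 3.24 in TG but 0.56 in WT. Cells of cluster 11 were thus near the members in TG and near cluster 8 in WT on this antibody.

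Other antibodies differed between TG members and WT members. CD49b, the integrin of conventional NK cells, was at 1.34 (0.91 to 1.77) in TG and 0.57 (0.30 to 0.91) in WT, with 2.45 and 1.99 in cluster 8 and 1.15 and 0.42 in CD8αα T cells. CD43, a sialoprotein of mature lymphocytes, was at 2.25 in TG members and 0.97 in WT members, with 2.09 and 1.96 in cluster 8 and 1.54 and 1.11 in CD8αα T cells. TCRβ was at 1.54 (1.16 to 1.79) in TG members and 0.78 (0.51 to 1.03) in WT members. For comparison it was at 0.92 and 0.82 in cluster 8, 1.93 and 1.65 in NKT cells, 1.60 and 1.04 in CD8αα T cells, 1.55 and 1.02 in cluster 11, and 0.71 and 0.61 in mature B cells. The TG members therefore lay level with the CD8αα T cells and cluster 11 of TG, and the WT members near cluster 8. CD5, which most T cells carry, was at 1.64 (1.16 to 2.02) in TG members and 0.87 (0.60 to 1.11) in WT members, where CD8αα T cells had 1.25 and 1.24 and mature B cells 0.79 and 0.92. CD4 was at 1.95 and 0.57, but CD8αα T cells were also higher in TG, at 1.62 against 0.57, as were mature B cells, at 0.80 against 0.35. In CD8αα T cells TG was thus higher than WT on CD49b, CD43, TCRβ and CD4 as well, and level with it on CD5. The CD3 antibody set the members little apart from other cells, with 0.41 and 0.28 in the members and 0.55 and 0.49 in NKT cells. NK1.1 was at 1.16 and 0.98, and CD335 (NKp46) at 0.23 and 0.45. The median of the members minus that of cluster 8 was -0.27 in TG and -0.07 in WT for NK1.1, and -0.22 and -0.01 for CD335. Minus that of CD8αα T cells it was -0.09 and 0.14 for NK1.1, and 0.03 and 0.22 for CD335.

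**Figure D4:**
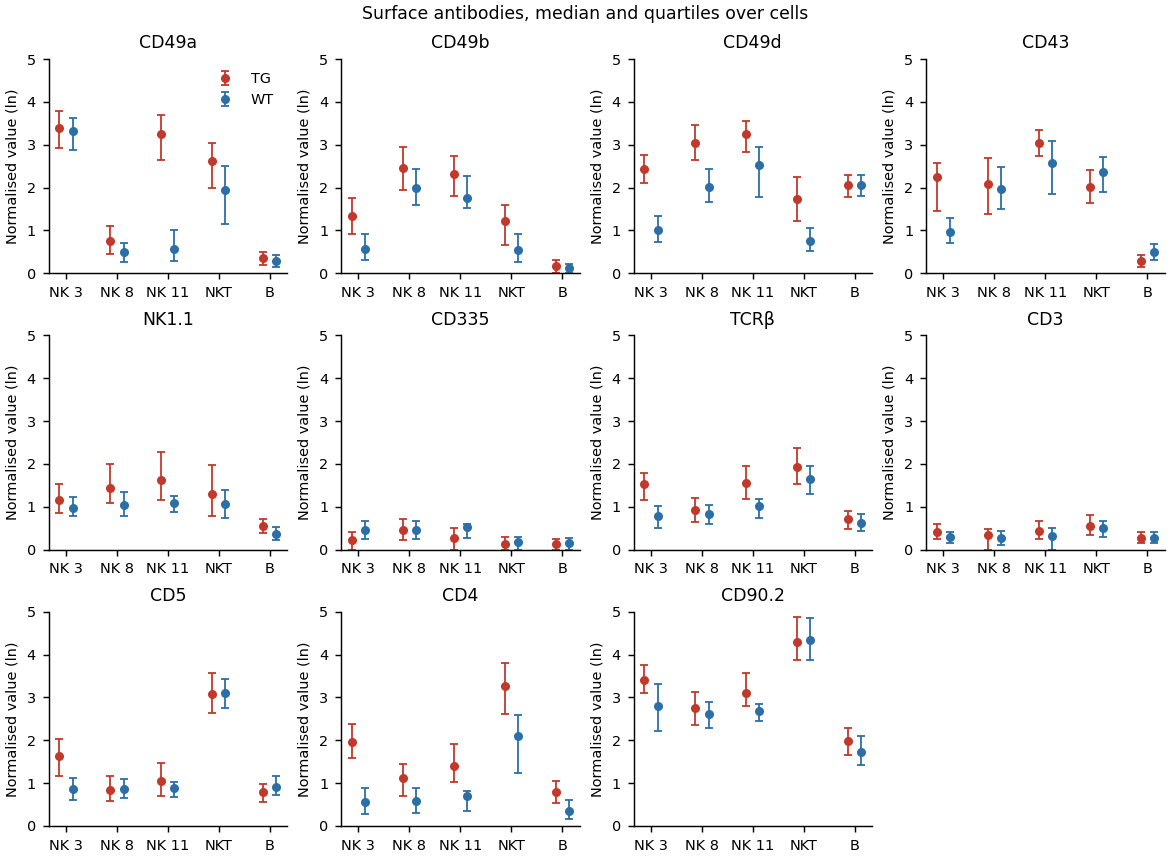
Points are medians and bars quartiles over cells of the normalised antibody value (natural log) in the NK clusters and reference cells of TG (red) and WT (blue). In cluster 3, CD49a is alike in TG and WT, while CD49b, TCRβ, CD5 and CD4 are higher in TG.

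The antibody values of WT members were touched by red cell signal. TER-119, a red cell antigen, had a median of 10 counts and an upper quartile of 357 counts in WT members, against 0 and 1 in TG members. Haemoglobin genes had 2261 UMIs in 26 of 306 WT members, 98.5% of them in 7 cells, and 1 UMI in TG members. CD24, which red cells also carry, was at 2.54 in WT members and 0.23 in TG members, and the part of the red cell signal in it was not tested. With TER-119 and CD24 left out, CD49a was 21.7% of the antibody counts of WT members and 19.0% of those of TG members. TCRβ was 2.18% and 2.45%, so that on this scale, a sum over all cells, the members differed less than in the normalised values. The median count of TCRβ per cell was 5 in WT members and 15 in TG members.

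Genes were then compared between TG and WT within cluster 3. Of 7801 genes with at least 20 UMIs, 336 (4.31%) were 2-fold or more higher in TG and 327 (4.19%) lower. In cluster 8 these shares were 2.76% and 3.63%, in CD8αα T cells 4.86% and 2.47%, and in mature B cells 1.84% and 2.69%. Among the 3205 genes with at least 100 UMIs over both genotypes, at least 10 in each and no few cells holding most of them, the 10 highest were Chst2, Cd3e, Cdk6, Klra7, Tcrg-C2, Igha, Igkc, Cd3d, Ehd3 and Slfn1. Klrg1, with 5 UMIs in WT members and a log2 ratio of 6.43 (5.33 to 8.20), and S1pr5, with 0, were left out by these minimums. Chst2, a carbohydrate sulfotransferase, was at 354 CPM (313 to 398) in TG members and 12.0 CPM (5.75 to 22.1) in WT members, a log2 ratio of 4.81 (3.98 to 5.96). It was also higher in TG in the CD8αα T cells, with 3.44, and gave -0.22 in mature B cells. Cd3e gave 3.71 (3.42 to 4.02) in cluster 3, 0.97 in cluster 8 and -0.54 in mature B cells. Cdk6, a kinase of the cell cycle, gave 3.53 (2.79 to 4.48) in cluster 3, -0.71 in cluster 8 and 1.29 in CD8αα T cells. Tcrg-C2, a constant region of the γ chain with near copies, gave 3.25 (2.58 to 4.07), with 210.3 CPM in TG members and 805 CPM in TG CD8αα T cells. Igkc, a light chain gene of B and plasma cells, gave 2.85 in cluster 3, 3.86 in cluster 8 and 3.34 in CD8αα T cells. It was thus higher in TG in each of these sets. Of 6 measured B cell genes, 5 were 2-fold higher in TG members and 1 was lower, and the part of this signal in the other differences was not tested.

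The 10 lowest of the same genes were Tmem273, Klri2, Klrb1b, Klra5, Tmem176b, Klrc1, Ckb, Nrgn, Selenop and Cd9. Klrb1b gave -2.83 (-3.19 to -2.51) in cluster 3, -0.70 (-1.07 to -0.35) in cluster 8 and -1.75 (-2.62 to -0.93) in CD8αα T cells. Klrc1, the gene of the inhibitory receptor NKG2A, was at 657 CPM in WT and 125 CPM in TG members, a log2 ratio of -2.38 (-2.71 to -2.08), where cluster 8 gave 0.06 (-0.26 to 0.38) and CD8αα T cells -1.47 (-1.78 to -1.16). It was also low in TG mature B cells, at 2.08 CPM against 23.9 CPM. Klra5, a Ly49 receptor gene, gave -2.67 (-3.13 to -2.27) in cluster 3, -0.52 (-1.91 to 0.69) in cluster 8 and -2.37 in the CD8αα T cells. Klri2, a further lectin-like receptor gene, gave -3.05 (-3.67 to -2.52) in cluster 3, -0.27 (-0.49 to -0.06) in cluster 8 and -2.51 (-3.86 to -1.38) in CD8αα T cells. Tyrobp, an adaptor through which NK receptors signal, gave -1.15 (-1.28 to -1.03) in cluster 3 and 0.10 in cluster 8, and the adaptor gene Fcer1g -0.70 (-0.80 to -0.60) and -0.02. The intervals of Klrb1b, Klrc1, Klra5 and Klri2 in cluster 3 lay below those in cluster 8, and these genes were lower in TG in CD8αα T cells too. With the ratio in mature B cells taken off, that of Klri2 in cluster 3 turned to 2.28 and that of Klrc1 to 1.05, where TG mature B cells held 0 and 7 UMIs of these genes. With the cells of 5 or more UMIs of Cd3d, Cd3e and Trac left out of both genotypes, the log2 ratio was -0.90 for Klrb1b, -0.86 for Klrc1 and 5.81 for Klrg1. The TG cells kept were the 24 with 0 or 1 such UMIs and the 28 with 2 to 4. The 28 had Klrb1b at 94.4 CPM (37.95 to 194.5), Klrc1 at 310 CPM, Klrg1 at 580 CPM and Cd3e at 485 CPM. The 24 had them at 747, 419, 105 and 65.5 CPM in the same order. The 269 WT members with 0 or 1 such UMIs had Klrb1b at 793 CPM. These ratios thus join TG strata that differ in T receptor transcripts.

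Beside 4.31% and 4.19% of all genes that were 2-fold higher and lower in TG members, 7 of 15 ILC1 genes were 2-fold lower and 0 higher, with a median log2 ratio of -0.85. The ILC1 list was also lower in TG in other cells, with medians of -0.54 in cluster 8, -0.38 in CD8αα T cells and -0.57 in mature B cells. In mature B cells 5 of 13 genes were 2-fold lower and 0 higher, beside 2.69% and 1.84% of all genes. In cluster 8, 4 of 10 were lower and 1 higher, beside 3.63% and 2.76%. In CD8αα T cells 3 of 13 were lower and 0 higher, beside 2.47% and 4.86%. In cluster 11, with 22 WT cells, the median was -1.01. Of 15 measured conventional NK genes, 8 were higher and 2 lower in TG members, with a median of 1.33. In cluster 8, 2 of 18 genes of this list were higher and 1 lower, beside 2.76% and 3.63% of all genes. In CD8αα T cells 6 of 14 were higher and 0 lower, beside 4.86% and 2.47%. In mature B cells 5 of 16 were higher and 3 lower, beside 1.84% and 2.69%. The medians of the list were 0.16, 0.32 and 0.32 in that order, but -0.54 in cluster 11, with its 22 WT cells. The median of all genes was -0.02 in the members and -0.14 in cluster 11. S1pr5, a receptor for exit from tissue, was at 86.2 CPM in TG members and 0 UMIs in WT members, and was at least 4.58 higher on the log2 scale with 3 counts per library as the floor. Zeb2, a transcription factor of terminal NK and T cell maturation, gave 2.57 (1.61 to 3.84). Of 14 T cell genes, 6 were higher and 1 lower, with a median of 0.78, against 0.15 in cluster 8, -0.18 in CD8αα T cells and -1.38 in mature B cells. Ifng, the gene of interferon γ, was at 272 CPM in TG members and 257 CPM in WT members, and Tbx21, the factor T-bet, at 237 and 208 CPM. Gzmb, the gene of granzyme B, was at 2976 CPM (2857 to 3099) in TG members and 3966 CPM (3832 to 4104) in WT members. Over 12 cytotoxic genes, 1 was 2-fold higher (Gzmk, 1.49) and 1 lower (Gzmc, -2.91).

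Cluster 3 was also set beside cluster 2, the CD8αα T cells, since deposited clusterings at resolutions 0.6 and 0.8 put all but 1 of the 569 members in a cluster with every CD8αα cell. At resolution 1 they were apart. Over 6492 genes, the profile of TG members correlated with that of TG CD8αα T cells at r = 0.966, with TG cluster 11 at 0.942, with WT members at 0.920 and with TG cluster 8 at 0.913. WT members correlated with WT CD8αα T cells at 0.952, with TG members at 0.920 and with WT cluster 8 at 0.910. With the NKT cells of their library, TG members were at 0.931 and WT members at 0.902. With the cells named CD8αβ T cells they were at 0.919 and 0.871. On both sets TG members were thus nearer than to cluster 8, and WT members were not. These are correlations across genes, which are not independent replicates, and profiles of a library share its background. Members of each genotype were nearer to the CD8αα T cells of their library than to each other. Across libraries, TG members correlated with WT CD8αα T cells at 0.923 and WT members with TG CD8αα T cells at 0.921. Both were about level with the 0.920 between the members. Cd3e was close to the CD8αα level in TG members, with a log2 ratio of -0.12 (-0.22 to -0.02), and far under it in WT members, with -3.58 (-3.90 to -3.29). Cd8a was lower than in CD8αα T cells in both, with -3.18 (-3.53 to -2.87) and -4.54 (-5.07 to -4.09). Ncr1 was higher, with 1.40 (1.17 to 1.63) in TG and 2.06 (1.80 to 2.35) in WT. Of ILC1 genes, 3 of 15 in TG were 2-fold higher than in CD8αα T cells, beside 2.14% of all genes, and 3 in WT, beside 3.23%, with medians of -0.19 and 0.11. In TG 1 ILC1 gene was 2-fold lower, beside 2.7% of all genes, and in WT 1, beside 2.0%. Of T cell genes, 3 of 15 in TG and 5 of 14 in WT were 2-fold lower than in CD8αα T cells, beside 2.7% and 2.0% of all genes, and 5 and 0 were higher.

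A clustering in which the libraries had not been joined was also deposited. There, 301 of 306 WT members fell in 1 cluster, which also held 190 of 194 WT CD8αα cells. TG members were spread, with 165 in the cluster that held 330 of 343 TG cells of cluster 11, 69 in the cluster that held 386 of 410 TG CD8αα cells, and 25 in the cluster that held 142 of 153 TG cells of cluster 8. Of the 24 TG members with 0 or 1 UMIs of Cd3d, Cd3e and Trac, 17 were in the last of these. Of the 211 with 5 or more, 145 were in the first and 63 in the second.

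**Figure D5:**
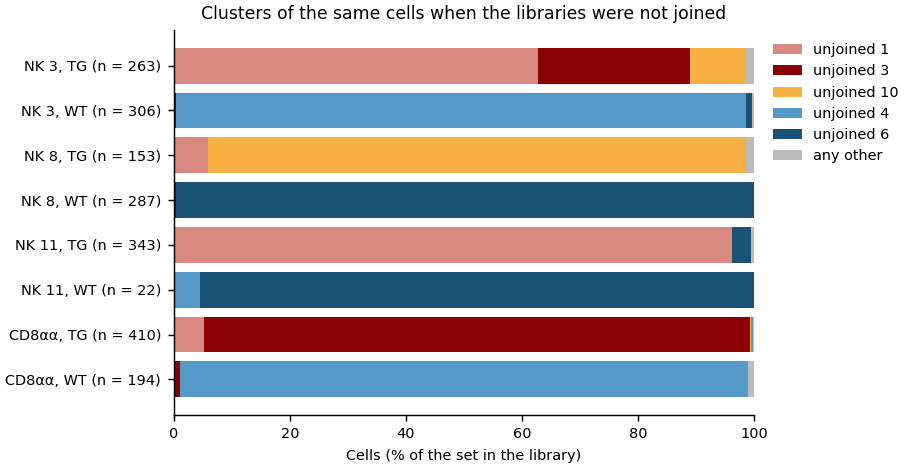
Bars give the share of cells (in % of the set within a library) in each cluster of the clustering in which TG and WT were not joined. WT members of cluster 3 share a cluster with WT CD8αα cells, and TG members are split between the clusters of TG cluster 11, TG CD8αα cells and TG cluster 8.

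Genes that set cluster 3 apart in both genotypes were ranked by the log2 ratio nearer to 0 of the pair. Against cluster 8, among 2477 genes with enough counts, the 10 highest were Cd3g, Rbpj, Cd160, Cish, Cd7, Bcl11b, Lpar6, Cxcr3, AU020206 and Ltb. Rbpj, the DNA-binding factor of Notch signalling, gave 3.26 (2.65 to 4.01) in TG and 2.58 (2.06 to 3.18) in WT. Cd160, a receptor of cytotoxic lymphocytes, gave 2.54 (2.18 to 2.95) and 2.55 (2.18 to 2.95). Bcl11b, a transcription factor of T cells and some innate lymphocytes, gave 2.84 (2.03 to 3.88) and 2.26 (1.65 to 2.97). Among the 10 lowest were Eomes, Pogk, Klra3, Irf8, Il18r1, Lpin1, 1700025G04Rik, Il18rap and Plek. Both chains of the interleukin 18 receptor were on this side, Il18r1 with -2.29 in TG and -2.21 in WT, and Il18rap with -2.71 and -2.02.

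Against cluster 11, where the 22 WT cells left 638 genes, the highest were Cd7, Ly6e, Dusp1, Fos, Shisa5, Tab2, Mbnl1, Ptpn22, Fgl2 and Stk17b, and the lowest Ly6c2, Lgals1, H2afz, Atp1b3, Flna, Prf1, Gzma, Vim, Spn and Rap1b. Cd7, a surface protein of NK and T cells, gave 1.67 (1.58 to 1.77) in TG and 3.85 (3.13 to 4.81) in WT. Gzma, the gene of granzyme A, gave -1.27 (-1.31 to -1.22) and -1.21 (-1.32 to -1.09). Of the ILC1 genes, 12 of 15 in TG and 11 of 14 in WT were 2-fold higher than in cluster 11, beside 5.8% and 18.3% of all genes, and 0 were lower in either. Of the conventional NK genes, 10 of 16 in TG and 14 of 14 in WT were 2-fold lower, beside 2.66% and 12.9%. The median log2 ratio of the ILC1 list over cluster 11 was 2.37 in TG. In WT it was 2.75, or 1.82 with genes at 0 set at their bound. The T cell list in TG had a median of 0.21 over cluster 11, with 4 of 14 genes 2-fold higher and 1 lower, beside 5.8% and 2.66% of all genes. Xcl1, an ILC1 gene among the leading genes of TG members, gave 4.51 (4.03 to 5.08), and Cd3e gave 0.20 (0.09 to 0.31). In TG the members thus differed from cluster 11 more by the ILC1 list than by the T cell list, some genes of which also differed.

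Summed levels of the marker lists of other lineages differed widely. The genes of ILC2 and ILC3 summed to 261 CPM in TG members and 297 CPM in WT members. Of the 11 genes, 6 were at 0 in TG members and 5 in WT members, with Il13 and Areg at 0 in both. Gata3, which NK cells and T cells also use, had 202 CPM in TG members and 203 in WT members. Other genes of the list were thus found at low levels. Hepatocyte genes summed to 12.7 and 25.2 CPM in TG and WT members, and the genes of monocytes and macrophages to 53.2 and 31.2 CPM. The B cell list summed to 1977 CPM in TG members and 657 CPM in WT members, and the neutrophil list to 364 and 119.9 CPM. The erythrocyte list summed to 1.27 CPM in TG members and 2712 CPM in WT members. The B cell list in TG members and the erythrocyte list in WT members were thus of the order of the ILC1 list, which summed to 3075 and 4964 CPM. What part these took in the differences between TG and WT was not tested.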

How the data were processed

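CD45+ liver cells of TG and WT mice were captured with the BD Rhapsody system, with 49 surface antibodies carrying sequence tags. The authors aligned reads to mm10 with STAR in the BD pipeline and deposited UMI counts of 13528 genes and of the antibodies for 11929 cells, with cell names, clusters and the percent of mitochondrial UMIs. They clustered in Seurat after joining the libraries by canonical correlation. Whether antibodies entered the clustering is not given in the sources used here. The deposited normalised antibody values are on a natural log scale. They were rebuilt from the antibody counts, with 0 values off by more than 1e-06. The deposited normalised RNA tables and the tables of whole libraries were not used, and 0 other per-sample columns were set aside.

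Counts were summed per cluster and library (CPM, exact Poisson intervals) and compared as log2 ratios with a pseudocount of 0.5 UMI and exact conditional binomial intervals, for genes with at least 20 UMIs over both profiles. Shares have exact Clopper-Pearson intervals. A gene was counted as higher or lower at 2-fold, with no test, since each genotype had 1 library. Cells were thinned to 1000 UMIs where shares were compared, and doublets were called with Scrublet in scanpy 1.11.5 (expected rate 5%) and kept. TMM factors of edgeR 4.0.16 served as an alternative scaling only. Calculations ran in Python 3.11.15, and the ratios were tested on simulated data. Genes named by size were the 10 highest and 10 lowest ratios among genes with at least 100 UMIs over both profiles, at least 10 in each, and no 3 cells with over 50% of the UMIs, leaving out receptor and immunoglobulin segments and sex-linked genes. For clusters 8 and 11 the ratio nearer to 0 of TG and WT was ranked, where both had the same sign. Members of the listed groups with at least 20 UMIs were counted too. The members and lists were chosen with earlier results of these data known. Some members of the lists and an antibody were counted with the rest but are not reported singly here.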

Additional observations from a re-analysis of the deposited data

Results flagged for a closer look

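Among the listed genes, 4 had a log2 ratio of cluster 3 over cluster 8 with an interval below 0 in TG and above 0 in WT. They were Klrb1b, with -0.69 in TG and 1.44 in WT, Klrc1, with -1.06 and 1.39, Txk, with -0.34 and 0.91, and Klrd1, with -0.23 and 0.25. With 1 library per genotype the difference was not tested.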

How the results depend on the processing

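No paired analysis was possible because each genotype had 1 library, and for the same reason no library could be left out. Of the values that answer a comparison, 129 recomputed values kept their size, 22 moved and 3 turned sign, and of those for single genes 2290 kept it, 356 moved and 9 turned sign; the cause was not tested. The T cell list over cluster 11 in WT, which rests on 22 cells, went from -0.09 to 0.027 with equal weight per cell, 0.97 with a minimum of 100 UMIs and 0.47 without doublets. The ILC1 list over cluster 8 in TG was 3.65 without cells of 5 or more UMIs of Cd3d, Cd3e and Trac, an alternative added after the data were seen. The conventional NK list over cluster 8 in WT was -4.30 after thinning, -3.80 with a minimum of 100 UMIs, -3.86 without cells of 2 or more T receptor UMIs and -4.22 without those of 5 or more of Cd3d, Cd3e and Trac. Genes 2-fold higher and lower in TG members numbered 1565 and 1472 with no minimum and 56 and 55 with a minimum of 100 UMIs, and 215 were higher after thinning. Cluster 3 was 34.7% of NK cells in TG and 49.8% in WT. The share of members with T receptor transcripts was 94.3% in TG and 69.9% in WT after thinning, 80.2% and 6.86% by the added measure of 5 UMIs, and 96.7% in WT with at least 1 UMI. By share of antibody counts, 6 antibodies differed by 1 unit between clusters 3 and 8 in TG, also without TER-119 and CD24, and 11 in WT, and between clusters 3 and 11 in WT 14, or 13 without TER-119 and CD24, where the normalised values gave 3, 5 and 6. In TG, Cd8b1 over cluster 11 turned to 0.38 after thinning. Of the TG over WT ratios in cluster 3, those of Cxcr6 (0.50), Il7r (0.76), Klri2 (2.28) and Klrc1 (1.05) turned sign after the ratio in mature B cells was taken off, and those of Il7r (0.77), Tmem176a (0.46), Itgam (0.015) and Cd9 (0.015) without cells of 5 or more UMIs of Cd3d, Cd3e and Trac. Leaving out cells with 2 or more T receptor UMIs gave no value for TG members, since fewer than 10 cells were left.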
